A study of Mus musculus with 27 samples.

Results

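The later part of the response of NMuMG cells to TGF-β was described by comparing cells treated for 24 h with cells treated for 8 h. NMuMG cells, an established epithelial line from mouse mammary gland, go through an epithelial-to-mesenchymal transition (EMT) when given TGF-β. The comparison rests on 4 RNA-seq libraries of parental cells, 2 at 8 h and 2 at 24 h, out of 27 samples in the series. A further 2 libraries of untreated cells (0 h) served to separate late and transient changes from those already made by 8 h. Parental cells carry no shRNA. All cells grew in medium with serum and insulin, and TGF-β was used at 1 to 5 ng/ml according to the labels. The study's methods call the 2 libraries of a group biological replicates, which carry no number here and are named first and second in table order. The other libraries used here were 2 per time point of NMuMG cells carrying a control shRNA, and 1 per time point of ATAC-seq (open chromatin) and of lamin B1 ChIP-seq in NMuMG cells. No untreated culture kept for 8 h or 24 h was analysed here, so the length of treatment and the time in culture cannot be told apart.

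TGF-β binds a pair of receptor kinases that phosphorylate SMAD proteins, which then enter the nucleus and switch target genes on or off together with other factors. In epithelial cells the pathway is known for arresting the cell cycle and for EMT. In EMT the cells take down their junctions and keratins, lay down matrix rich in fibronectin and collagen, and build contractile actin fibres.

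Expression was given as FPKM (fragments counted per kilobase of a transcript and per fixed number of mapped fragments), so levels can be compared between genes per length. Of 23295 genes listed, 11309 were tested, which reached 1 FPKM in 2 or more of the 6 parental libraries. A gene that reached it only at 24 h entered through the libraries in which it was high, which favours a call as a rise. Differences are on the log2(FPKM + 1) scale, on which 1 is a doubling for a well expressed gene and understates the change of a gene near 0. Each is given as ± its standard error (SE), from 2 libraries per time point. A gene was called, and is said to have risen or fallen, when the Benjamini-Hochberg adjusted p of limma's moderated test over all tested genes was under 0.05. In every gene given below as called, both 24 h libraries lay on the same side of both 8 h libraries.

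Relative depth, read in narrow bins from the steps of low FPKM values, lay between 92.7% and 115.7%, with both untreated libraries at 100.7%. The absolute depth is unknown. Libraries of one time point agreed across genes (Pearson's r between 0.981 and 0.990 on the log2 scale; genes are not independent replicates). The 2 libraries at 8 h differed a little in how near they stood to the 24 h level, and the cause was not tested. Over the rises and falls of at least 2-fold, the median of the first minus the second was 0.053 and -0.107 on the log2 scale. Among the genes that later changed by at least 2-fold, the first 8 h library was nearer to the 24 h level than the second for 133 of 213 rises and for 148 of 198 falls. Without the first 8 h library there were 231 such rises and 241 falls, and without the second 217 and 185. Small RNA genes that lie inside other genes held between 21.6% and 31.5% of the summed FPKM, with the highest share in the second 24 h library. They were passed over in choosing genes to name. Of 8 mammary epithelial markers, 6 passed the filter, led by the keratins Krt8 and Krt18. The summed level of all 8 was 5019 and 5247 FPKM in the 8 h libraries and 4332 and 4339 at 24 h. Epcam stayed at or under 1.17 FPKM and Cldn7 at or under 0.038 in every library. Markers of endothelium, leukocytes and fibroblasts summed to at most 3.86 FPKM each in any library, and those of adipocytes, led by Fabp4, to at most 5.87. Of 6 myoepithelial markers 1 (Krt14) reached 1 FPKM, and they summed to between 4.89 and 6.55 FPKM at 8 h and between 1.75 and 1.82 at 24 h.

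The second interval changed many genes a little and few genes a lot. Between 8 h and 24 h, 5854 genes (51.8% of those tested) were called, 3136 higher (27.7%) and 2718 lower (24%). Most of these differences were small, with a median size of 0.34 among called genes, and the median of all tested genes was 0.02. A change of at least 2-fold was seen in 213 called rises (1.88% of tested genes) and 198 called falls (1.75%). Without the first 24 h library 2022 genes were called higher, and without the second 2062. The interval before, 8 h against 0 h, had 6161 calls (54.5%), of which 2535 were higher (22.4%) and 3626 lower (32.1%). Of the 597 genes (5.28%) called and at least 2-fold higher at 24 h than at 0 h, the median had made 49.6% of its log2 change by 8 h, and 140 had made under 25%. For the 736 genes (6.51%) at least 2-fold lower the median was 53.9%, and 103 had made under 25%.

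**Figure D1:**
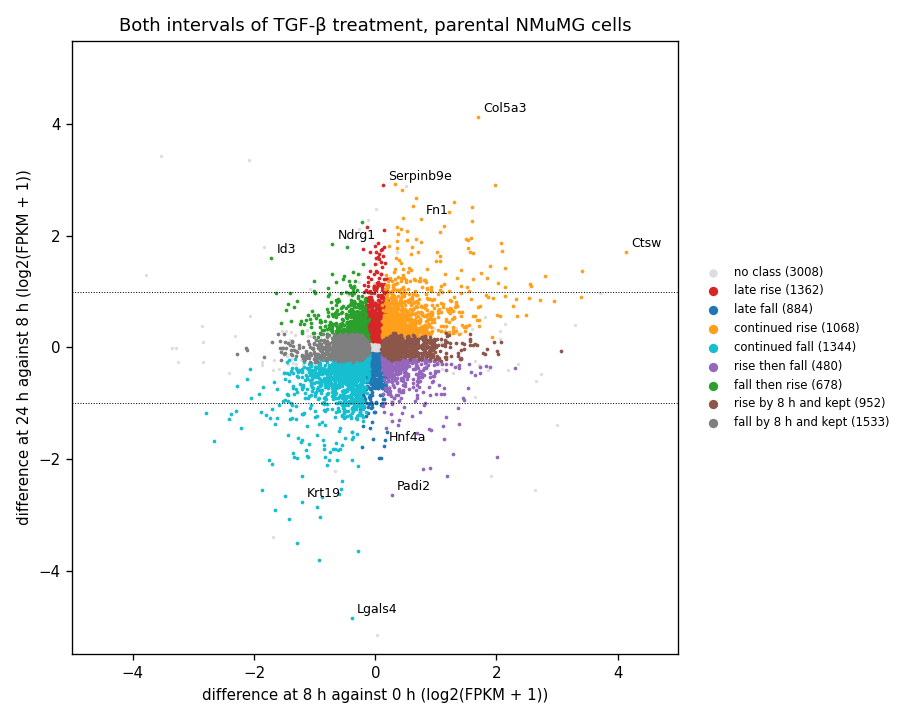
Difference at 24 h against 8 h (y axis) against the difference at 8 h against 0 h (x axis), both as log2(FPKM + 1), for the 11309 genes tested in parental cells, coloured by class, with 9 small RNA genes outside the axes. Dotted lines mark a 2-fold change in the second interval, and the orange (continued rise) and light blue (continued fall) quadrants hold most of the genes beyond them.

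The 2 intervals together placed the genes in 8 classes, shown in the plot of both intervals. An interval counted as flat when it was not called and the 95% confidence interval of the difference lay within 0.5 on either side of 0. Late changes, flat to 8 h and called afterwards, comprised 1362 rises and 884 falls. Changes that continued in the same direction comprised 1068 rises and 1344 falls. Transient changes, called in opposite directions in the 2 intervals, comprised 480 genes that rose and then fell and 678 that fell and then rose. Changes made by 8 h and then kept comprised 952 rises and 1533 falls. In 144 more genes one interval was called and the other was neither called nor flat, and 2864 genes were called in neither. Both contrasts use the 8 h libraries, so an error there moves a gene towards the transient classes. The number of genes that fell and then rose was 420 without the first 8 h library, 397 without the first 24 h library and 389 without the second. Without the first and the second 24 h library, late rises numbered 889 and 903, and without the second 298 genes rose and then fell. Large changes belonged mostly to the continued classes, with 118 of the 213 rises and 147 of the 198 falls of at least 2-fold. The late classes held 63 and 24 of them, 23 rises followed an early fall, and 27 falls followed an early rise.

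Late rises were led by Serpinb9e, a serpin of the intracellular clade B. Its level was 0.104 and 0.138 FPKM at 0 h, 0.223 and 0.237 at 8 h and 8.45 and 8.04 at 24 h, a difference of 2.91 ± 0.067 (adjusted p = 1.3e-06). Both 24 h libraries stood far above all 4 earlier ones, and reads of the closely related Serpinb9 genes may be shared. Serpinb9e passed the minimum FPKM only through its 24 h libraries, so its rise was favoured by the filter. Ctsf, the lysosomal protease cathepsin F, was at 2.34 and 1.94 FPKM at 0 h, 1.84 and 1.62 at 8 h and 8.02 and 8.59 at 24 h (difference 1.77 ± 0.085, adjusted p = 1.2e-05). The cathepsin rise came from a level that had changed little by 8 h. Speg, a kinase of the myosin light chain kinase family known from striated muscle, was at 2.3 and 2.7 FPKM at 8 h and 11.2 and 9.71 at 24 h (difference 1.71 ± 0.095). Sprr2k, a small proline-rich protein of the cornified envelope with near-identical relatives, was at 2.0 and 1.62 FPKM at 8 h and 11.2 and 10.9 at 24 h. In all 4 genes the 24 h libraries were at least 3 times above every earlier library.

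Late falls were led by Spats2l and by Hnf4a. Hnf4a, a nuclear receptor that drives the gene programme of liver and gut epithelium, was at 79.9 and 83.9 FPKM at 0 h, 92.9 and 87.9 at 8 h and 24.6 and 26.8 at 24 h, a difference of -1.78 ± 0.055 (adjusted p = 3.1e-06). The level at 8 h was no lower than in untreated cells, and both 24 h libraries were more than 3 times below it. Spats2l was at 8.91 and 8.36 FPKM at 8 h and 1.49 and 1.38 at 24 h (difference -1.98 ± 0.077). The integrin chain Itga6, a laminin receptor of hemidesmosomes, was at 31.4 and 33.1 FPKM at 0 h, 31.5 and 31.2 at 8 h and 9.25 and 9.53 at 24 h (difference -1.64 ± 0.045, adjusted p = 2.1e-06). It had not moved by 8 h. The collagen receptor chain Itga1 was at 5.92 and 6.01 FPKM at 8 h and 1.26 and 1.15 at 24 h (difference -1.66 ± 0.083).

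**Figure D2:**
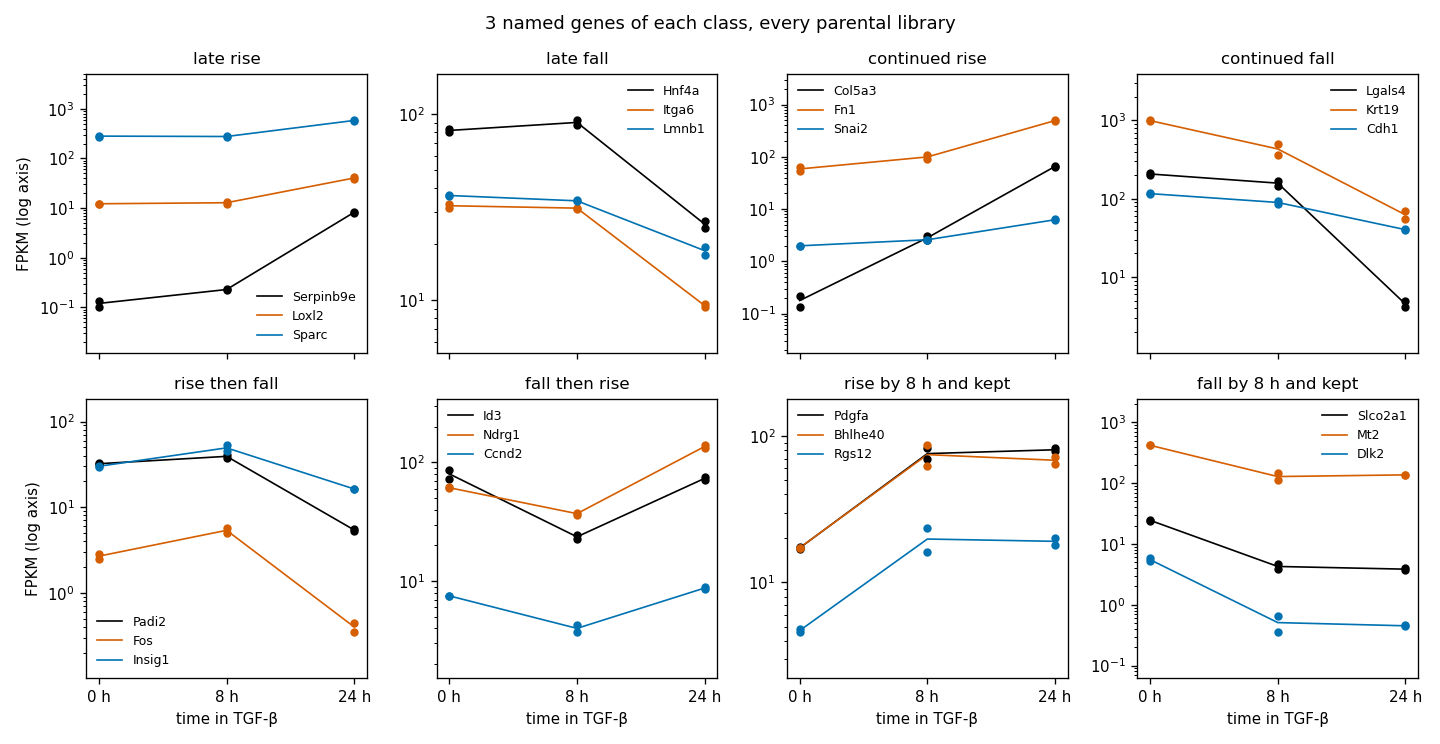
FPKM on a log axis at 0, 8 and 24 h of TGF-β for 3 named genes of each class, with 1 point per parental library (2 per time point) and lines through the means. Hnf4a and Itga6 stayed level to 8 h and fell by 24 h, Id3 and Ndrg1 dipped at 8 h and rose again, and Pdgfa and Mt2 held their 8 h level at 24 h.

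Among continued rises, Col5a3, a chain of the fibril-forming collagen V, had the largest rise among the named genes. It was at 0.136 and 0.221 FPKM at 0 h, 3.07 and 2.58 at 8 h and 65.7 and 65.2 at 24 h (difference 4.12 ± 0.077, adjusted p = 6.8e-07), so that most of its rise came after 8 h. The gene lies on mm9 at chr9:20574494-20619511, minus strand. Lrrc32 (GARP), which holds latent TGF-β on the cell surface, was at 1.61 and 1.81 FPKM at 0 h, 2.22 and 2.59 at 8 h and 25.6 and 24.5 at 24 h (difference 2.94 ± 0.074). Klhl30 was at 0.804 and 0.679 FPKM at 8 h and 11.4 and 11.3 at 24 h (difference 2.82 ± 0.068). It passed the minimum FPKM only through its 24 h libraries, so its rise was favoured by the filter. The secreted ligand Wnt9a was at 1.14 and 0.651 FPKM at 8 h and 12.1 and 9.94 at 24 h (difference 2.67 ± 0.14). None of these was above 4 FPKM at 8 h. Lce1g, a late cornified envelope gene whose reads may be shared with its close relatives, was at 2.08 and 1.66 FPKM at 0 h, 12.2 and 8.67 at 8 h and 90.4 and 77.5 at 24 h.

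Continued falls had the largest decreases. Lgals4, a galectin of gut epithelium, was at 210.3 and 204 FPKM at 0 h, 147 and 169 at 8 h and 4.18 and 4.87 at 24 h, a difference of -4.85 ± 0.082 (adjusted p = 6.8e-07). The related Lgals2 was at 1831 and 1687 FPKM at 0 h, 1409.95 and 1473 at 8 h and 112 and 115 at 24 h (difference -3.65 ± 0.052), and was thus among the more highly expressed genes of untreated cells. Anxa10, an annexin, was at 45.5 and 44.7 FPKM at 0 h, 22.04 and 24.4 at 8 h and 0.641 and 0.819 at 24 h (difference -3.81 ± 0.071). The keratin Krt6a was at 41.6 and 42.4 FPKM at 0 h, 17.2 and 15.8 at 8 h and 0.472 and 0.618 at 24 h (difference -3.5 ± 0.067). Both were under 1 FPKM at 24 h. Ckmt1, mitochondrial creatine kinase, was at 22.3 and 22.6 FPKM at 0 h, 6.9 and 8.64 at 8 h and 0.056 and 0.021 at 24 h. Apoc2, the activator of lipoprotein lipase, was at 17.2 and 16.6 FPKM at 0 h, 7.87 and 9.24 at 8 h and 0.248 and 0.068 at 24 h. In each of these 6 genes the libraries of the 3 time points did not overlap.

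Genes that rose and then fell included Padi2, which converts arginine in proteins to citrulline. It was at 31.9 and 32.4 FPKM at 0 h, 37.7 and 40.7 at 8 h and 5.58 and 5.25 at 24 h (difference -2.65 ± 0.053, adjusted p = 7.3e-07), so the decrease ran well past the starting level. Serpinb5 (maspin), an epithelial serpin, was at 19.1 and 19.4 FPKM at 0 h, 38.4 and 35.5 at 8 h and 7.26 and 7.77 at 24 h (difference -2.16 ± 0.055). S100a8, a calcium-binding protein of inflamed epithelium, was at 2.78 and 2.76 FPKM at 0 h, 7.78 and 7.42 at 8 h and 0.881 and 0.623 at 24 h. Fos, a subunit of the transcription factor AP-1, was at 2.49 and 2.86 FPKM at 0 h, 5.71 and 5.02 at 8 h and 0.446 and 0.352 at 24 h (difference -2.18 ± 0.087). All 4 were below the untreated libraries at 24 h. Over the whole class this was not the rule, since at 24 h against 0 h 143 of 480 genes were called higher (33.4% of all genes), 119 were called lower (37.1% of all genes) and 218 were not called.

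Genes that fell and then rose included Id3, which blocks the DNA binding of basic helix-loop-helix factors. Id3 was at 86.9 and 73.2 FPKM at 0 h, 22.6 and 24.6 at 8 h and 71.4 and 75.4 at 24 h (difference 1.6 ± 0.083, adjusted p = 1.8e-05), and its 24 h libraries were close to the second untreated library. Its relative Id1 fell in both intervals, with 257 and 220.4 FPKM at 0 h, 107 and 110.3 at 8 h and 39.3 and 40.7 at 24 h (second difference -1.42 ± 0.070). Id2 was at 224 and 218 FPKM at 0 h, 23.9 and 37.5 at 8 h and 30.2 and 34.6 at 24 h, and its difference of 0.1 ± 0.18 in the second interval did not pass (adjusted p = 0.65). Ndrg1, a stress and differentiation gene, went above its starting level, with 60.7 and 61.7 FPKM at 0 h, 36.4 and 37.7 at 8 h and 139.8 and 133 at 24 h (difference 1.85 ± 0.042). Pltp and Wisp2 also went above their starting levels. Pltp, the phospholipid transfer protein, was at 2.43 and 2.22 FPKM at 0 h, 1.77 and 1.92 at 8 h and 11.7 and 13.3 at 24 h. Wisp2, a matricellular protein of the CCN family, was at 3.02 and 3.32 FPKM at 0 h, 1.81 and 2.2 at 8 h and 8.73 and 10.2 at 24 h. A level above the start was not the rule over the whole class. At 24 h against 0 h, 163 of 678 genes were called higher (33.4% of all genes) and 119 lower (37.1% of all genes). The other 396 were not called.

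Changes made by 8 h and kept were led by Pdgfa, a ligand for PDGF receptors, at 16.98 and 17.5 FPKM at 0 h, 82.4 and 69.2 at 8 h and 82.4 and 78.6 at 24 h (difference at 24 h against 8 h 0.09 ± 0.078). Bhlhe40, a transcriptional repressor tied to the circadian clock, was at 17.3 and 17.3 FPKM at 0 h, 86.6 and 62.6 at 8 h and 71.8 and 64.7 at 24 h. Apol9b was at 1.52 and 1.73 FPKM at 0 h, 9.19 and 10.03 at 8 h and 9.49 and 8.7 at 24 h. Rgs12, a regulator of G protein signalling, was at 4.62 and 4.78 FPKM at 0 h, 23.6 and 16.02 at 8 h and 20.2 and 17.9 at 24 h. The first 8 h library was the higher one for Pdgfa, Bhlhe40 and Rgs12. On the falling side, the prostaglandin transporter Slco2a1 was at 23.8 and 25.05 FPKM at 0 h, 3.84 and 4.69 at 8 h and 4.03 and 3.66 at 24 h. The metallothionein Mt2 was at 416 and 421 FPKM at 0 h, 112 and 144 at 8 h and 135 and 138 at 24 h. C1s, a complement protease, was at 11.2 and 11.4 FPKM at 0 h, 1.47 and 2.15 at 8 h and 1.71 and 1.81 at 24 h. Dlk2, a relative of the Notch ligands, was at 5.86 and 5.15 FPKM at 0 h, 0.361 and 0.656 at 8 h and 0.444 and 0.457 at 24 h.

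**Figure D3:**
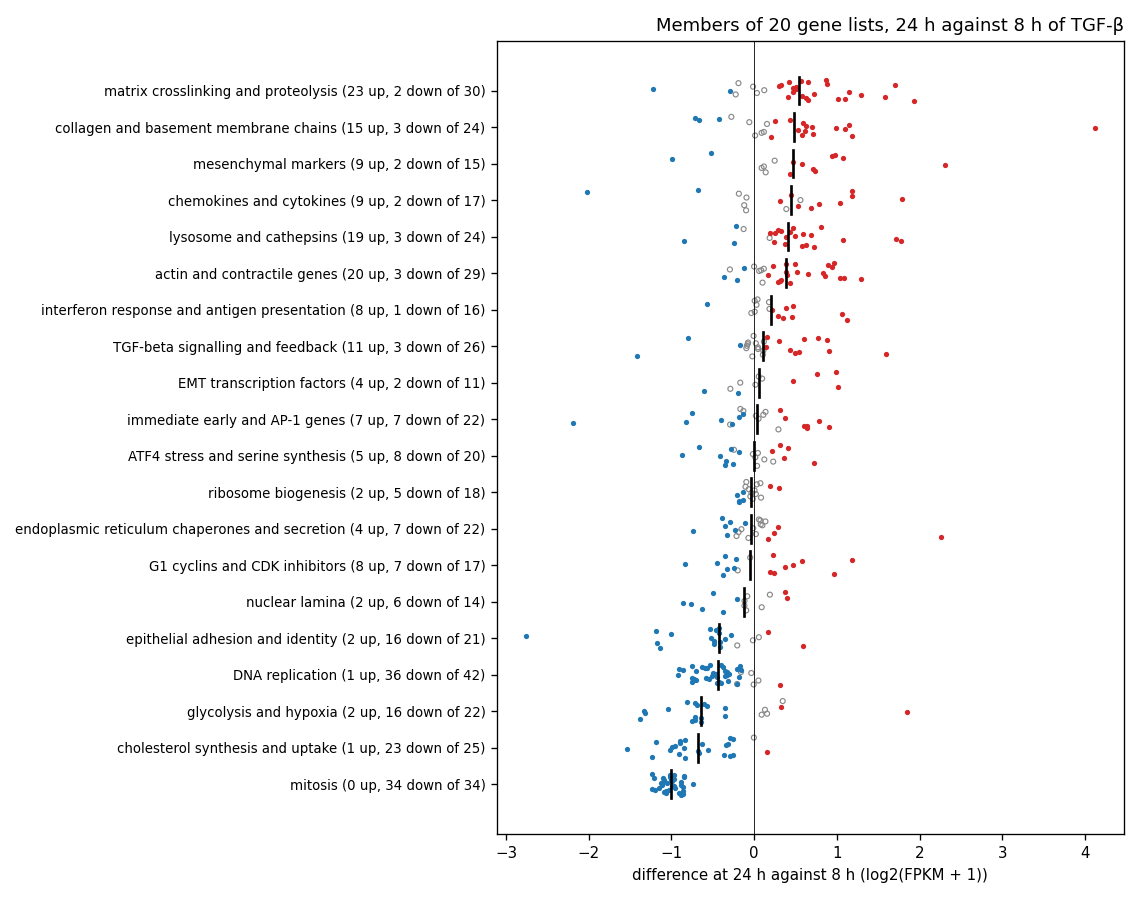
Difference at 24 h against 8 h, as log2(FPKM + 1), for the tested members of 20 gene lists, with filled red and blue points for genes called higher and lower, open points for genes not called, and a black bar at the median. All 34 mitosis genes lie to the left of 0, and the matrix, actin and lysosome lists lie mostly to the right.

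The matrix genes moved mostly upwards in the second interval. Of 30 tested genes for matrix crosslinking and proteolysis, 23 rose and 2 fell, or 4 without the first 8 h library (median difference 0.54, against 0.02 over all genes tested). Of 24 collagen and basement membrane chains 15 rose and 3 fell (median 0.48). These shares compare with 27.7% called higher and 24% called lower among all genes. With either 24 h library left out, 27 of the 30 genes of the first list passed the minimum FPKM. Some of its rises thus depended on the 24 h libraries to be tested at all. Fn1, fibronectin, was at 53.04 and 64.4 FPKM at 0 h, 92.8 and 107 at 8 h and 486 and 503 at 24 h (difference 2.3 ± 0.098, adjusted p = 8.9e-06), with both 24 h libraries more than 4 times above the 8 h libraries. The crosslinking enzymes differed in timing. Loxl2 rose late, with 12.2 and 12.3 FPKM at 0 h, 13.4 and 12.3 at 8 h and 41.6 and 39.4 at 24 h (difference 1.58 ± 0.054). Lox was already higher at 8 h and rose further, with 1.93 and 1.79 FPKM at 0 h, 7.27 and 6.97 at 8 h and 16.97 and 15.7 at 24 h (difference 1.09 ± 0.062). Plod2, a lysyl hydroxylase of collagen, was at 9.91 and 10.4 FPKM at 0 h, 24.5 and 18.9 at 8 h and 74.5 and 70.3 at 24 h. The metalloprotease Adam12 was at 1.63 and 1.7 FPKM at 0 h, 7.05 and 6.34 at 8 h and 28.8 and 27.6 at 24 h. Both rose in each interval. Besides Col5a3, the collagen chains with the largest rises were Col12a1, Col7a1 of anchoring fibrils and Col5a1. Col12a1 was at 6.65 and 8.18 FPKM at 8 h and 17.3 and 18.8 at 24 h. Col7a1 was at 17.4 and 15.1 FPKM at 8 h and 36.2 and 38.03 at 24 h. Col5a1 was at 13.9 and 11.9 FPKM at 8 h and 28.2 and 29.1 at 24 h. The 3 chains that fell were all laminins, among them Lamb3 and Lamc1. Lamb3, a chain of epithelial basement membrane, rose to 8 h and then fell, with 105 and 108 FPKM at 0 h, 227 and 217 at 8 h and 139.6 and 139.5 at 24 h (difference -0.67 ± 0.038). Lamc1 was at 43.1 and 48.6 FPKM at 0 h, 37.2 and 38.2 at 8 h and 26.7 and 28.8 at 24 h (difference -0.43 ± 0.065).

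Of 15 mesenchymal markers, all tested, 9 rose and 2 fell (median 0.47), against 27.7% and 24% of all genes. With either 24 h library left out, 14 of the 15 passed the minimum FPKM. Of the markers, 3 collagen chains and Mmp2 are also in the matrix lists and Acta2 and Tagln in the actin list. Of 6 fibroblast markers, 2 (Pdgfrb and Dcn) reached 1 FPKM. All 6 summed to between 2.26 and 2.44 FPKM at 8 h and between 3.61 and 3.86 at 24 h. Pdgfrb was at 0.238 and 0.306 FPKM at 8 h and 1.83 and 1.78 at 24 h. Dcn was at 1.42 and 1.33 FPKM at 8 h and 1.25 and 1.17 at 24 h. Pdgfra, a defining gene, stayed at or under 0.361 in every library. The part of these fibroblast markers in the result was not tested. Sparc, a collagen-binding matricellular protein, rose late, with 287 and 277 FPKM at 0 h, 279.7 and 274 at 8 h and 577 and 589 at 24 h (difference 1.07 ± 0.039). N-cadherin (Cdh2) was at 35.02 and 35.2 FPKM at 0 h, 41.8 and 41.5 at 8 h and 67.6 and 71.8 at 24 h (difference 0.73 ± 0.042). Tenascin C (Tnc) was at 66.6 and 69.4 FPKM at 8 h and 131 and 137 at 24 h (difference 0.97 ± 0.078). The smooth muscle genes Acta2 and Tagln rose late and from low levels. Acta2 was at 2.68 and 2.82 FPKM at 8 h and 3.98 and 4.14 at 24 h. Tagln was at 1.13 and 0.988 FPKM at 8 h and 3.17 and 2.76 at 24 h. Col1a2 (1.84 and 1.9 FPKM at 8 h and 2.22 and 1.9 at 24 h) and Col3a1 (3.73 and 4.14 FPKM at 8 h and 4.2 and 4.5 at 24 h) were not called. The 2 genes that fell, S100a4 and vimentin (Vim), were the most abundant members at every time point. S100a4 was at 2502 and 2233 FPKM at 0 h, 1915 and 1963 at 8 h and 945 and 999 at 24 h (difference -1.0 ± 0.066). Vim was at 1371 and 1361 FPKM at 0 h, 1665 and 1728 at 8 h and 1199 and 1164 at 24 h (difference -0.52 ± 0.045). Vimentin thus stood above the untreated level at 8 h and fell after it.

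Of 21 tested genes of epithelial adhesion and identity, 16 fell and 2 rose (median -0.43), against 24% and 27.7% of all genes. A further 11 of the 32 genes listed were under the filter. Krt19 was at 1005 and 982 FPKM at 0 h, 363 and 501 at 8 h and 55.5 and 69.1 at 24 h, a difference of -2.76 ± 0.15 (adjusted p = 2.2e-05), with the first 8 h library nearer to the 24 h level. E-cadherin (Cdh1) was at 113 and 119 FPKM at 0 h, 86.3 and 92.9 at 8 h and 39.4 and 41.1 at 24 h (difference -1.13 ± 0.050, adjusted p = 9.8e-06). E-cadherin, the cell adhesion protein of adherens junctions, thus lost more of its RNA after 8 h than before. Spint2, an inhibitor of membrane serine proteases, was at 165 and 153 FPKM at 0 h, 106 and 116 at 8 h and 47.96 and 48.4 at 24 h. The epithelial transcription factor Ehf was at 22.5 and 24.6 FPKM at 0 h, 8.72 and 11.1 at 8 h and 3.65 and 4.0 at 24 h. The junction genes Tjp1, Ocln and Dsp fell by between 0.43 and 0.48. Keratins 8 and 18 kept high levels. Krt8 was at 2599 and 2583 FPKM at 8 h and 2154 and 2108 at 24 h (difference -0.28 ± 0.046). Krt18 was at 1958 and 2059.9 FPKM at 8 h and 2068 and 2108 at 24 h (difference 0.06 ± 0.051, adjusted p = 0.38, not called). The 2 rises were the claudin Cldn4 and the desmosome gene Pkp2. Cldn4 was at 0.092 and 0.147 FPKM at 0 h, 6.61 and 4.15 at 8 h and 9.19 and 7.69 at 24 h (difference 0.59 ± 0.17, adjusted p = 0.027). Pkp2 was at 31.6 and 29.004 FPKM at 8 h and 34.9 and 33.5 at 24 h (difference 0.17 ± 0.051, adjusted p = 0.027). Of the list, 0 genes were called higher with no filter, without the second 8 h library or without the first 24 h library, and 1 without the second 24 h library or without either 0 h library.

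The transcription factors of EMT moved at different times. Snai1 was at 1.93 and 2.29 FPKM at 0 h, 16.3 and 13.5 at 8 h and 13.1 and 10.9 at 24 h, and its difference of -0.29 ± 0.12 after 8 h did not pass (adjusted p = 0.074). Snai2 was at 1.97 and 2.0 FPKM at 0 h, 2.61 and 2.57 at 8 h and 6.15 and 6.36 at 24 h (difference 1.01 ± 0.057, adjusted p = 2.3e-05), with most of its rise after 8 h. Zeb1 was at 5.24 and 5.79 FPKM at 0 h, 11.5 and 11.3 at 8 h and 20.2 and 19.8 at 24 h (difference 0.76 ± 0.056). Zeb2 was at 1.92 and 2.03 FPKM at 0 h, 2.92 and 3.05 at 8 h and 7.15 and 6.59 at 24 h (difference 0.98 ± 0.065). The fourth gene to rise was Tcf4. Hmga2, a chromatin protein upstream of Snai1 and Twist1, rose and then fell, with 44.2 and 45.7 FPKM at 0 h, 87.5 and 88.2 at 8 h and 57.7 and 56.8 at 24 h (difference -0.61 ± 0.037). Twist1 was at 1.43 and 0.876 FPKM at 8 h and 1.31 and 1.26 at 24 h and was not called. In all, 4 of 11 tested genes rose and 2, Hmga2 and Ets1, fell (median 0.05), against 27.7% and 24% of all genes. Only 1 was called lower with no filter, with upper quartile scaling, with no trend, and without either 0 h library, the first 8 h library or the second 24 h library. Without the second 8 h library 3 were called lower and the median was -0.08. Ets1 (difference -0.2 ± 0.066, adjusted p = 0.041) lost its call in 9 of 12 alternatives. In the first interval 9 had risen, against 22.4% of all genes.

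Components of the TGF-β pathway were largely in place by 8 h, when 18 of 26 tested genes were called higher than in untreated cells, against 22.4% of all genes. In the second interval 11 rose and 3 fell (median 0.11), against 27.7% and 24% of all genes. The receptors parted. Tgfbr1, the type I receptor, was at 28.9 and 32.6 FPKM at 0 h, 58.7 and 48.9 at 8 h and 31.2 and 29.6 at 24 h (difference -0.8 ± 0.093, adjusted p = 0.00047). Tgfbr2, the type II receptor that binds the ligand, was at 22.7 and 23.4 FPKM at 0 h, 18.2 and 19.998 at 8 h and 33.1 and 33.3 at 24 h (difference 0.77 ± 0.053, adjusted p = 4.7e-05). The type I receptor thus went back to its untreated range while the type II receptor rose above it. All 3 ligand genes rose. Tgfb1 was at 40.1 and 38.8 FPKM at 8 h and 49.9 and 47.8 at 24 h. Tgfb2 was at 3.84 and 3.35 FPKM at 8 h and 7.75 and 7.15 at 24 h. Tgfb3 was at 2.21 and 1.75 FPKM at 8 h and 3.86 and 3.19 at 24 h. These ligands share the same receptors. Ltbp2, a matrix protein of the family named for binding latent TGF-β, was at 0.996 and 1.15 FPKM at 0 h, 4.12 and 4.06 at 8 h and 8.79 and 8.28 at 24 h. This member is not known for binding latent TGF-β itself. The feedback inhibitors Smad7, Skil, Ski and Pmepa1 rose by 8 h and were not called in the second interval. Smad7 was at 4.92 and 5.19 FPKM at 0 h, 11.9 and 9.64 at 8 h and 11.3 and 10.5 at 24 h (difference 0.02 ± 0.093). Pmepa1 was at 39.01 and 38.6 FPKM at 0 h, 125 and 117 at 8 h and 127 and 123 at 24 h (difference 0.05 ± 0.046). The differences of Skil and Ski were 0.05 ± 0.084 and -0.1 ± 0.078.

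Of 22 AP-1 and immediate early genes 7 rose and 7 fell (median 0.04), against 27.7% and 24% of all genes. The counts were 7 and 5 with no filter, 8 and 5 with upper quartile scaling and 7 and 5 without either 0 h library or the first 24 h library, and 7 and 4 without the second 24 h library. The AP-1 subunits went apart. Fos, described above, and Fosl1 fell and Fosl2 rose. Fosl1 was at 8.94 and 9.03 FPKM at 0 h, 6.09 and 7.87 at 8 h and 3.17 and 3.77 at 24 h (difference -0.83 ± 0.11). Fosl2 was at 8.72 and 9.02 FPKM at 0 h, 22.6 and 18.3 at 8 h and 37.01 and 34.5 at 24 h (difference 0.78 ± 0.092, adjusted p = 0.0005). Junb was at 282 and 253 FPKM at 8 h and 240.5 and 229 at 24 h (difference -0.18 ± 0.059, adjusted p = 0.036), and its call was lost in 8 of 12 alternatives. Jun was at 18.9 and 17.5 FPKM at 8 h and 24.1 and 23.8 at 24 h (difference 0.38 ± 0.055). The YAP and SRF target Ctgf was at 27.6 and 26.3 FPKM at 0 h, 117 and 85.7 at 8 h and 206 and 171 at 24 h (difference 0.9 ± 0.14, adjusted p = 0.002).

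Of 29 actin and contractile genes, 20 rose and 3 fell (median 0.38), against 27.7% and 24% of all genes. The calponins Cnn2 and Cnn3, which bind actin filaments, both rose. Cnn2 was at 42.99 and 43.6 FPKM at 8 h and 107 and 108 at 24 h (difference 1.29 ± 0.041). Cnn3 was at 77.5 and 69.9 FPKM at 8 h and 158 and 157 at 24 h (difference 1.09 ± 0.052). Csrp1, a LIM protein of stress fibres, was at 66.04 and 65.2 FPKM at 8 h and 139 and 132 at 24 h. Tropomyosin 1 (Tpm1), which lies along actin filaments, was already abundant in untreated cells and rose late, with 473 and 457 FPKM at 0 h, 485 and 504 at 8 h and 906 and 923 at 24 h (difference 0.89 ± 0.042). Zyxin (Zyx) of focal adhesions rose in both intervals, with 25.7 and 26.6 FPKM at 0 h, 75.7 and 67.04 at 8 h and 149 and 132 at 24 h. Fermt2 (kindlin-2), which activates integrins, was at 17.2 and 16.4 FPKM at 8 h and 31.8 and 30.6 at 24 h (difference 0.85 ± 0.046). The CArG box, CC then 6 of A or T then GG, is the site of the serum response factor, which is known to drive actin genes. Both strands were searched in the 250 bases before the start of each RefSeq gene (GRCm38.p6). The box was found in 6 of 24 matched promoters of this list, 5 of them of genes that rose, against 1.4% of 27025 promoters in the table and 114 of 9039 promoters of tested genes. The promoters of the 2 genes with the largest rises among them are printed to show the box (capitals). They are Cnn2 at chr10:79988350-79988599 on the plus strand and Fermt2 at chr14:45530066-45530315 on the minus strand.
Cnn2: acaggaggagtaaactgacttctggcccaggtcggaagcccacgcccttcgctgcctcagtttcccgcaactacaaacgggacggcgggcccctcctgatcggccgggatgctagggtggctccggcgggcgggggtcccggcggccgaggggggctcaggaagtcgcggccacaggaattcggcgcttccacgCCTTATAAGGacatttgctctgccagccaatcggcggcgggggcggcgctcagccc
Fermt2: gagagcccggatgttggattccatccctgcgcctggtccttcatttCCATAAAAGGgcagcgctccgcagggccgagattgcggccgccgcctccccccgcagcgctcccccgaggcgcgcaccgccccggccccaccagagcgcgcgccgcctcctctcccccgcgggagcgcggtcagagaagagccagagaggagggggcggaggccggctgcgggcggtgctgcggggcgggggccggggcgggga
A match of letters says nothing about binding in these cells.

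The cell cycle genes fell, in 2 steps. All 34 mitosis genes were called lower at 24 h than at 8 h (median -1.01, 18 of them by at least 2-fold), against 24% of all genes called lower. In bulk RNA, fewer cells in mitosis and less of these RNAs per cell cannot be told apart. By 8 h 22 of them had fallen (median -0.27, against 32.1% of all genes called lower), and the median member had made 20.7% of its 24 h change. All 42 DNA replication genes had already fallen by 8 h (median -0.82), and 36 fell further while 1 rose (median -0.43). For them the median share made by 8 h was 64.7%. Cyclin B2 (Ccnb2) was at 47.8 and 47.9 FPKM at 0 h, 41.5 and 41.4 at 8 h and 17.7 and 16.3 at 24 h (difference -1.24 ± 0.046, adjusted p = 5.3e-06). Ube2c, the ubiquitin-conjugating enzyme of the anaphase-promoting complex, was at 143 and 139 FPKM at 0 h, 129 and 124 at 8 h and 56.9 and 49.8 at 24 h (difference -1.23 ± 0.062). Both had lost little by 8 h. Plk1, a mitotic kinase, was at 50.2 and 51.2 FPKM at 8 h and 22.98 and 19.7 at 24 h. Cyclin B1 (Ccnb1) was at 71.6 and 71.6 FPKM at 8 h and 32.1 and 29.05 at 24 h. The replication genes had lost more by 8 h. The helicase subunit Mcm5 was at 72.3 and 71.4 FPKM at 0 h, 35.4 and 38.7 at 8 h and 20.6 and 17.7 at 24 h (difference -0.92 ± 0.075). The clamp loader subunit Rfc4 was at 33.7 and 30.5 FPKM at 0 h, 19.6 and 20.02 at 8 h and 10.7 and 9.47 at 24 h. The 1 gene that rose was cyclin E1 (Ccne1), at 10.8 and 10.2 FPKM at 0 h, 5.28 and 5.23 at 8 h and 7.15 and 6.43 at 24 h (difference 0.31 ± 0.064). The clustered histone genes, which are expressed in S phase, summed to between 129 and 134 FPKM at 24 h against 164 and 168 at 8 h.

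Genes of G2 and mitosis are known to carry CCAAT boxes before their start. They also carry a CHR element (TTTGAA), through which they are repressed in resting cells. Of 31 mitosis genes with a RefSeq promoter, 10 held TTTGAA on either strand in the 250 bases before the start and 24 held CCAAT, against 10.4% and 37.4% of 9039 promoters of tested genes. The 3 genes with the largest falls among the 9 that held both are printed to show where the letters lie. Matches are in capitals, and ATTGG and TTCAAA are matches on the other strand. The windows are Ccnb2 at chr9:70421555-70421804 on the minus strand, Ube2c at chr2:164769679-164769928 on the plus strand and Cdc20, the activator of the anaphase-promoting complex, at chr4:118437344-118437593 on the minus strand, all on GRCm38.p6.
Ccnb2: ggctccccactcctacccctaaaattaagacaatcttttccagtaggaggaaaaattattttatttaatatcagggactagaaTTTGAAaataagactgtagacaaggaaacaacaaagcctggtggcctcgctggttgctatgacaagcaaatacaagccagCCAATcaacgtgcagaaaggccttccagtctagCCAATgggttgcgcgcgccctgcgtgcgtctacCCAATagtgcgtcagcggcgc
Ube2c: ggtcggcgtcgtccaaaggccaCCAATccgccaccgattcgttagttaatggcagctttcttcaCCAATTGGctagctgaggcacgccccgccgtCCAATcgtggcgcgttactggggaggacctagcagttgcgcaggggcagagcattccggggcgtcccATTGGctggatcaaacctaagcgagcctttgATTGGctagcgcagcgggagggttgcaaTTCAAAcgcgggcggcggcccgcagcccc
Cdc20: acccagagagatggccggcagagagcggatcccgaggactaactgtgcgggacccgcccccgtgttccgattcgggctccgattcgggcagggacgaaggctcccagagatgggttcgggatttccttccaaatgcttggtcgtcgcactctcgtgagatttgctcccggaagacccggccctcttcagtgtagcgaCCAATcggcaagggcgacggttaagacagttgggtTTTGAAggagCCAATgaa
Cdc20 was at 81.96 and 76.3 FPKM at 0 h, 65.1 and 67.9 at 8 h and 30.5 and 28.5 at 24 h (difference -1.15 ± 0.053). All 3 had an ATAC peak within 500 bp of the start at 24 h, when their RNA was lowest, and at 0 h. At 8 h Ube2c and Cdc20 had one and Ccnb2 had none. Of all tested genes, 56.4% had such a peak at 0 h, 46.1% at 8 h and 84.1% at 24 h.

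Among the regulators of G1, 8 of 17 rose and 7 fell (median -0.05), against 27.7% and 24% of all genes. Cdkn2b (p15), the inhibitor of CDK4 and CDK6 known as a TGF-β target, was at 27.7 and 28.5 FPKM at 0 h, 46.97 and 47.5 at 8 h and 64.4 and 66.98 at 24 h (difference 0.47 ± 0.040, adjusted p = 0.00012). Cdkn1a (p21) was at 90.99 and 83.97 FPKM at 0 h, 80.6 and 75.9 at 8 h and 63.1 and 60.9 at 24 h (difference -0.33 ± 0.053). The D cyclins differed. Ccnd2 fell and then rose, with 7.5 and 7.52 FPKM at 0 h, 3.75 and 4.25 at 8 h and 8.55 and 8.94 at 24 h. Ccnd1 fell in both intervals, with 254 and 257 FPKM at 0 h, 150.03 and 165 at 8 h and 125 and 117 at 24 h. The stress gene Gadd45b was at 15.5 and 14.7 FPKM at 0 h, 29.8 and 21.9 at 8 h and 58.4 and 60.5 at 24 h (difference 1.19 ± 0.12). Gadd45a was at 4.94 and 4.34 FPKM at 0 h, 34.3 and 21.8 at 8 h and 42.2 and 40.2 at 24 h, with 8 h libraries far apart. Its difference of 0.57 ± 0.18 was called (adjusted p = 0.033) but not with no filter or when any of the 0 h or 24 h libraries was left out, and it was 0.26 without the second 8 h library.

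Cholesterol synthesis was the list with the largest share of transient changes. Of 25 tested genes 17 rose by 8 h and 23 fell afterwards (median 0.24 and then -0.69), and 16 were in the class that rose and then fell. The shares over all genes were 22.4%, 24% and 4.24%. Insig1, a sterol-regulated brake on the pathway, was at 30.4 and 29.7 FPKM at 0 h, 52.99 and 45.6 at 8 h and 16.5 and 16.1 at 24 h (difference -1.53 ± 0.069, adjusted p = 1.1e-05). Cyp51, the lanosterol demethylase, was at 44.7 and 45.2 FPKM at 0 h, 72.8 and 65.04 at 8 h and 28.6 and 28.9 at 24 h (difference -1.23 ± 0.056). Both levels peaked at 8 h. Sc4mol, the methylsterol oxidase, was at 129.5 and 123 FPKM at 8 h and 53.3 and 56.9 at 24 h. Idi1, the isopentenyl diphosphate isomerase, was at 99.3 and 97.96 FPKM at 8 h and 48.3 and 48.02 at 24 h. For all 4 genes the 24 h libraries were also below the untreated ones. Tm7sf2 (8.48 and 9.12 FPKM at 8 h and 8.77 and 8.75 at 24 h) was not called. Ggps1, which makes geranylgeranyl diphosphate, was the 1 gene that rose, by 0.15, and it was not called under quantile normalization, without the second 8 h library or without either 24 h library.

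Glycolysis genes mostly fell after 8 h, against 24% of all genes called lower. Besides late falls, the list held 6 continued falls and 2 genes that rose and then fell. Of 22 tested genes of glycolysis and hypoxia 16 fell and 2 rose (median -0.64), with 4 rises under quantile normalization or without the first 8 h library and 5 under upper quartile scaling, and 8 of the falls were flat to 8 h. Lactate dehydrogenase A (Ldha) was at 1471 and 1428 FPKM at 0 h, 1239 and 1271 at 8 h and 503 and 502 at 24 h (difference -1.32 ± 0.042, adjusted p = 3.3e-06). Pdk1, a kinase that inhibits pyruvate dehydrogenase, was at 9.21 and 9.73 FPKM at 0 h, 9.0 and 9.22 at 8 h and 3.07 and 2.94 at 24 h (difference -1.34 ± 0.055). The enzymes Aldoa, Tpi1, Gapdh, Pgk1, Pgam1, Eno1 and Pkm differed by between -0.81 and -0.58. Egln3 was at 26.3 and 24.95 FPKM at 0 h, 5.3 and 10.4 at 8 h and 2.23 and 2.28 at 24 h, with 8 h libraries that differed 2-fold. The 2 rises were Ndrg1, described above, and Pfkp, at 5.81 and 5.76 FPKM at 8 h and 7.54 and 7.46 at 24 h. Vegfa was at 50.9 and 36.95 FPKM at 8 h and 56.6 and 54.1 at 24 h and did not pass (adjusted p = 0.061).

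Lysosomal genes mostly rose after 8 h, against 27.7% of all genes called higher. Besides late rises, the list held 6 continued rises and 4 genes that fell and then rose. Of 24 tested genes 19 rose and 3 fell, or 1 without the first 24 h library (median 0.41), 9 of them from a level that was flat to 8 h. Cathepsin L (Ctsl) was at 311 and 299 FPKM at 0 h, 378 and 366 at 8 h and 777 and 791 at 24 h (difference 1.07 ± 0.041, adjusted p = 5.7e-06). Psap, the precursor of sphingolipid activators, was at 274 and 284 FPKM at 0 h, 327 and 319.7 at 8 h and 566 and 572 at 24 h (difference 0.81 ± 0.039). Ctsw, a cathepsin known from cytotoxic lymphocytes, rose from 0.811 and 0.751 FPKM at 0 h to 34.5 and 26.9 at 8 h and 105 and 101 at 24 h. Of 7 leukocyte markers 1 (Cd68) reached 1 FPKM, and they summed to between 1.55 and 1.74 FPKM at 8 h and between 2.85 and 2.86 at 24 h; their part in the result was not tested. The largest fall was cathepsin H (Ctsh), at 81.4 and 81.1 FPKM at 0 h, 106 and 104 at 8 h and 56.2 and 59.4 at 24 h.

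Of 17 tested chemokines and cytokines, 9 rose and 2 fell (median 0.44), and 1 fell with no filter or without the first 24 h library. Over all genes 27.7% were called higher and 24% lower. Il11, a cytokine of the IL-6 family known as a TGF-β target in fibroblasts, was at 10.6 and 10.7 FPKM at 0 h, 34.5 and 30.8 at 8 h and 125 and 106 at 24 h (difference 1.79 ± 0.083, adjusted p = 1.2e-05). Lif of the same family was at 5.77 and 5.75 FPKM at 0 h, 9.14 and 8.07 at 8 h and 22.6 and 19.1 at 24 h. Cxcl12 of stromal cells was at 3.44 and 3.32 FPKM at 8 h and 7.84 and 8.19 at 24 h. Il18 fell and then rose, with 5.84 and 6.94 FPKM at 0 h, 3.2 and 4.24 at 8 h and 8.88 and 10.4 at 24 h. Ccl2 had a high level and was not called, with 459 and 495 FPKM at 8 h and 449.8 and 440.4 at 24 h. The iron-binding protein lipocalin 2 (Lcn2) was at 44.01 and 43.96 FPKM at 0 h, 10.05 and 15.2 at 8 h and 2.41 and 2.19 at 24 h (difference -2.02 ± 0.16).

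In the nuclear lamina, 2 of 14 genes rose and 6 fell (median -0.12), against 27.7% and 24% of all genes. Lmnb1, which encodes lamin B1, was flat to 8 h and lower at 24 h, with 36.9 and 36.3 FPKM at 0 h, 34.1 and 34.4 at 8 h and 19.5 and 17.6 at 24 h (difference -0.86 ± 0.053, adjusted p = 3.1e-05). Lmna, for lamins A and C, rose and then fell, with 359 and 354 FPKM at 0 h, 493 and 484 at 8 h and 290.3 and 283 at 24 h (difference -0.77 ± 0.037). The lamin B receptor (Lbr) was at 29.01 and 29.1 FPKM at 0 h, 15.2 and 16.5 at 8 h and 10.5 and 9.21 at 24 h. Tmpo (LAP2), which binds lamins and chromatin, was at 89.1 and 90.2 FPKM at 8 h and 64.2 and 62.5 at 24 h. Lmnb2 was at 16.5 and 16.6 FPKM at 8 h and 15.05 and 15.3 at 24 h (difference -0.12 ± 0.043, adjusted p = 0.057, not called). Sun2 of the nuclear envelope was at 14.2 and 13.3 FPKM at 0 h, 19.3 and 19.5 at 8 h and 26.7 and 24.8 at 24 h (difference 0.39 ± 0.055).

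**Figure D4:**
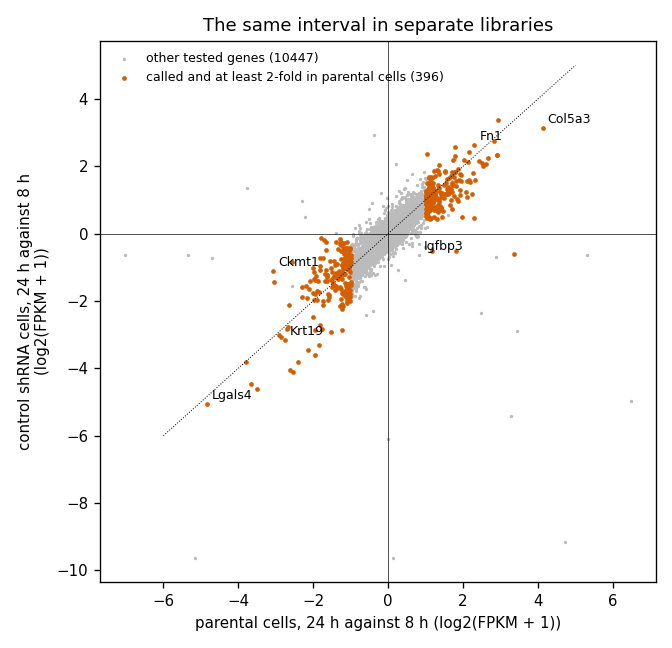
Difference at 24 h against 8 h in control shRNA cells (y axis) against the same difference in parental cells (x axis), log2(FPKM + 1), for 10843 genes tested in both tables; orange points are genes called and changed at least 2-fold in parental cells. Nearly all orange points lie in the lower left and upper right quadrants.

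The same interval was measured in separate libraries of NMuMG cells with a control shRNA, which share no library with the parental table. There 25.2% of 11450 tested genes were called higher and 24.5% lower. Of the 204 parental rises of at least 2-fold that were tested there, 199 were called higher and 0 lower, and of 192 falls 181 were called lower and 0 higher. The 3 rises with a lower value at 24 h in the control cells, none of them called by limma, were the small RNA genes Rn4.5s, Snora70 and Snord17. To be in the same class in both tables, a gene had to be placed alike in both intervals. Of genes that rose and then fell, 264 of 469 (56.3%) were in the same class in control shRNA cells, against 4.9% of all genes tested in both tables. For genes that fell and then rose it was 419 of 651 (64.4%, against 10.7%), for late rises 378 of 1282 (29.5%, against 7.36%) and for late falls 298 of 867 (34.4%, against 6.38%). Continued rises gave 48.1% (against 6.55%), continued falls 67.1% (against 13.1%), kept rises 44.7% (against 7.32%) and kept falls 59.4% (against 19.9%).

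Some groups differed in size. All 34 mitosis genes also fell in control shRNA cells, with a median of -1.73 there against -1.01 in parental cells, and Ccnb2 differed by -2.23 against -1.24. DNA replication genes had a median of -0.66 against -0.43, with 37 of 42 called lower. Mesenchymal markers had a median of 0.86 over 11 genes against 0.47 over 15, with Fn1 at 2.62 against 2.3. These medians cover different sets of genes and cannot be compared in size. In parental cells alone, a filter at 5 FPKM left 9 markers with a median of 0.71. Cholesterol genes were close, with -0.66 and -0.69. The tables were normalized separately and the difference between them was not tested.

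**Figure D5:**
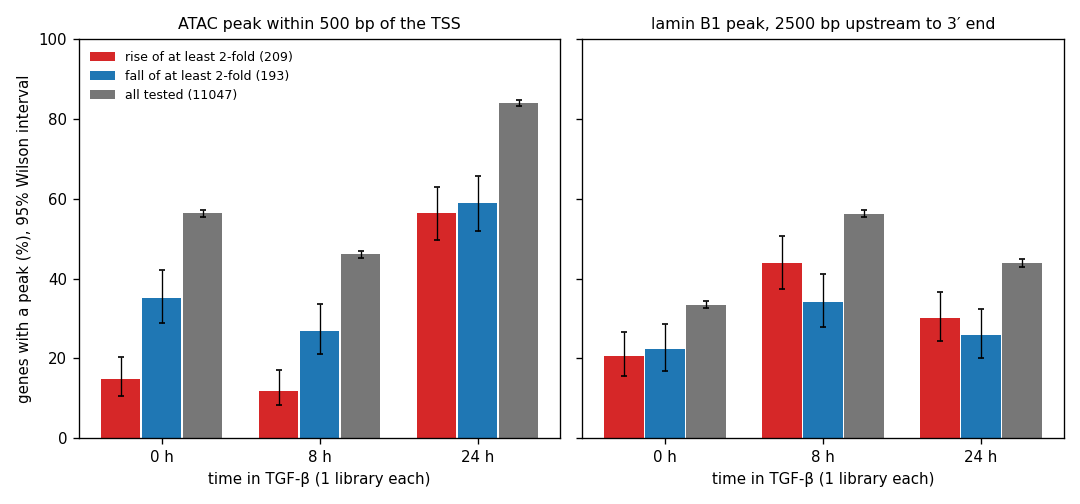
Percent of placed genes with an ATAC peak within 500 bp of the TSS (left) and with a lamin B1 peak from 2500 bp upstream of the TSS to the 3′ end (right) at 0, 8 and 24 h, for parental rises and falls of at least 2-fold and for all tested genes, with 95% Wilson intervals. Both changed groups are below all tested genes in every list, and the rises are lowest for ATAC at 0 and 8 h.

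Strongly changed genes carried fewer promoter peaks of open chromatin than other genes. Peaks were read from 1 library per assay and time point, so the shares have no replicate error, and the intervals cover counting error only. The ATAC lists hold 9782, 10340 and 33811 peaks at 0, 8 and 24 h, so shares rise at 24 h for all genes and each is read beside all tested genes. Of the 11309 tested genes 11047 (97.7%) were placed on mm9. At 0 h, 31 of 209 rises of at least 2-fold (14.8%, interval 10.7 to 20.3) had an ATAC peak at the promoter, against 56.4% of all tested genes. At 8 h it was 25 (11.96% against 46.1%), and at 24 h 118 (56.5%, interval 49.7 to 63.0, against 84.1%). The falls of at least 2-fold stood between, with 35.2% at 0 h, 26.9% at 8 h and 59.1% at 24 h. The rises started from a low level, with a median of 2.23 FPKM at 0 h against 12.9 for all tested genes. Among genes of at least 5 FPKM at 0 h, 18 of 65 rises (27.7%, interval 18.3 to 39.6) and 67 of 171 falls (39.2%, interval 32.2 to 46.7) had a peak at 0 h, against 62.3% of 8402 tested genes. The 8 classes as a whole, which are mostly small changes, lay at 0 h between 49.0% (continued rise) and 64.2% (late fall).

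Col5a3 and Serpinb9e had no ATAC peak at the start at 0 h or 8 h and 1 at 24 h, for Col5a3 at chr9:20618938-20619920 (mm9) around the start at position 20619511. Snai2 likewise had a peak only in the 24 h list, whereas Fn1 had none in the 8 h list but one at 0 h and one at 24 h, at chr1:71698877-71700731. Hnf4a kept a peak at all 3 time points while its RNA fell, and Lgals4 and Loxl2 had none at any time.

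Lamin B1 peaks were also fewer at strongly changed genes. At 8 h, 92 of 209 rises (44.0%, interval 37.5 to 50.8) and 66 of 193 falls (34.2%, interval 27.9 to 41.1) had a lamin B1 peak, against 56.3% of all tested genes. At 24 h the shares were 30.1%, 25.9% and 44.0%. Among genes of at least 5 FPKM at 0 h the shares at 8 h were 41.5% of 65 rises (interval 30.4 to 53.7) and 33.9% of 171 falls (interval 27.2 to 41.3), against 59.1% of tested genes. At 24 h they were 35.4% (interval 24.9 to 47.5) and 26.3% (interval 20.3 to 33.4), against 46.6%, which lies within the interval of the rises. The median gene length was 18.001 kb for these rises and 15.6 kb for the falls, against 22.7 kb for all tested genes; the part of length in the result was not tested. In the classes as a whole the share at 8 h lay between 52.7% (continued fall) and 63.8% (kept rise).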

How the data were processed

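RNA of parental and of shRNA-carrying cells was sequenced on the HiSeq 2500, and the authors deposited an FPKM value for each gene and library. The submitters' processing notes name TopHat, Cufflinks, Bowtie and mm9, and versions are not given in the sources used here. Neither table names its columns, and the order of libraries follows the deposited descriptions. The peak lists the authors deposited carry a MACS score per peak (at least 50), and each was made from 1 library. Hi-C was not analysed here. FPKM holds no counts, so the depth is known only relative to other libraries.

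The tests were run on log2(FPKM + 1) in R 4.3.3 with limma 3.58.1 (moderated test with a trend), 6 parental libraries in one fit and 12 shRNA libraries in another. A gene was tested when 2 libraries or more reached 1 FPKM, and p-values were adjusted by Benjamini-Hochberg over all tested genes. The scripts were tested on simulated data. Genes were placed on mm9 (GENCODE M1), and promoters came from RefSeq (GRCm38.p6). Intervals of shares are Wilson intervals (95%).

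The gene lists, classes and named genes were chosen with earlier results of these data known. By rule, the text names the 4 genes per class with the largest difference among members whose groups do not overlap and that reach a mean of 5 FPKM, the 6 largest rises and falls, and up to 4 called members per list. Small RNA and predicted genes were passed over. Other members are named for their role, after their values were seen. Alternatives were a pseudocount of 0.1, no filter, a filter at 5 FPKM, quantile and upper quartile scaling, no trend, a 2-fold minimum, a flat limit of 1, a fit of the 8 h and 24 h libraries only, each library left out, only the peaks at or above the median score of each list and a promoter window of 2500 bp. The 2-fold counts under each setting were added after seeing the data. Some genes that the rule or the lists hold are not reported here.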

Additional observations from a re-analysis of the deposited data

Results flagged for a closer look

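Igfbp3, which binds insulin-like growth factors, moved in opposite directions in the 2 kinds of NMuMG cells. In parental cells it was at 36.7 and 35.8 FPKM at 0 h, 54.9 and 48.6 at 8 h and 92.1 and 92.5 at 24 h, and both 24 h libraries lay above both 8 h libraries (difference 0.826 on the log2 scale). In control shRNA cells it was at 112 and 108 FPKM at 8 h and 66.3 and 75.1 at 24 h, with both 24 h libraries below both 8 h libraries (difference -0.635). The difference between the cells was not tested. Of 10843 genes tested in both tables, 28 were called in opposite directions, and Igfbp3 was the 1 gene among them with a change of more than 0.5 on the log2 scale in each.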

How the results depend on the processing

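All 11 counts of calls and classes dropped when a minimum of 2-fold was added to the test. It left 411 calls, 213 higher and 198 lower, with 90 late rises, 56 late falls, 42 continued rises, 46 continued falls, 8 genes that rose and then fell, 3 that fell and then rose, 63 kept rises and 71 kept falls. With a pseudocount of 0.1 the rises and falls of at least 2-fold numbered 360 and 345. Leaving out 1 library at a time, genes called higher ranged from 2022 to 3042, late rises from 889 to 1636, genes that rose and then fell from 298 to 521 and genes that fell and then rose from 389 to 826. These fits leave a time point with 1 library, which is assumed to vary like the other time points. The other counts of calls and classes stayed within 1.5 times their value under the remaining alternatives. The share of calls that were higher was 53.6%, and between 49.6% and 58.2% over the alternatives. Of 1921 values of the 162 genes named in the text under 12 alternatives, 1851 kept direction and call, 15 gained a call and 55 lost it. The losses fell on 10 genes, Cd68, Cldn4, Ets1, Gadd45a, Ggps1, Junb, Pkp2, Snora70, Snord17 and Stc2. With only the peaks at or above the median score of each list, rises of at least 2-fold had an ATAC peak in 6.70% at 8 h and 33.0% at 24 h and a lamin B1 peak in 23.9% and 17.2%, and falls had 16.6%, 41.97%, 16.1% and 11.4%, against 28.1%, 70.4%, 35.6% and 26.2% of all tested genes. With 2500 bp around the start, ATAC shares were 68.9% at 24 h for rises and 33.7% and 69.9% at 8 h and 24 h for falls, against 48.6% and 87.4% of all tested genes. The cause was not tested.

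No paired analysis was possible because no column of parental cells has a replicate number. In control shRNA cells no shared deviation of same-numbered libraries was seen, with correlations of 0.012, 0.023 and 0.033. These cannot tell whether the cultures were grown as pairs. With the replicate block 5551 genes were called there at 24 h against 8 h, 2798 higher and 2753 lower, against 5687 without it. FPKM gives no counts, so the depth behind a low value is unknown. With 2 libraries against 2, an exact permutation test of 1 gene cannot go below p = 0.333, and every call rests on the spread shared across genes.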

Other observations

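Of 16 tested genes of the interferon response and antigen presentation, 8 rose between 8 h and 24 h, against 27.7% of all genes, and 1 fell (median 0.20). Rises numbered 5 with no filter or without the second 24 h library. B2m, the light chain of MHC class I, was at 184 and 184 FPKM at 0 h, 207 and 210.4 at 8 h and 459.8 and 451 at 24 h (difference 1.12 ± 0.035, adjusted p = 3.2e-06 by limma). Gbp2, an interferon-induced GTPase, was at 1.75 and 1.94 FPKM at 0 h, 0.992 and 1.44 at 8 h and 3.16 and 4.1 at 24 h (difference 1.06 ± 0.13). Both stood above the untreated libraries at 24 h. Irf1 was at 29.1 and 30.4 FPKM at 8 h and 41.3 and 42.1 at 24 h, and the 1 gene that fell was Mx1, with 6.03 and 6.29 FPKM at 0 h, 0.534 and 0.789 at 8 h and 0.079 and 0.156 at 24 h, which passed the minimum FPKM only through its 0 h libraries and was not tested without either of them. The other 16 of the 32 genes listed were under the minimum FPKM.

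Genes of the ATF4 stress response and serine synthesis did not move together, with 5 of 20 higher and 8 lower (median -0.0014, and 0.02 with upper quartile scaling). The shares over all genes were 27.7% and 24%. Psat1, an enzyme of serine synthesis, was at 280.2 and 273 FPKM at 0 h, 122 and 135 at 8 h and 70.9 and 69.02 at 24 h (difference -0.87 ± 0.051). Chac1, which degrades glutathione, was at 7.31 and 5.38 FPKM at 0 h, 5.78 and 5.36 at 8 h and 10.4 and 9.21 at 24 h (difference 0.72 ± 0.12). Trib3, a target of ATF4, was at 10.4 and 8.26 FPKM at 8 h and 5.75 and 5.18 at 24 h. Stc2 was at 1.25 and 1.79 FPKM at 8 h and 1.98 and 2.71 at 24 h, and its rise was not called in 6 of 12 alternatives.

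Of 22 genes of endoplasmic reticulum chaperones and secretion, 17 had risen by 8 h, and afterwards 4 rose and 7 fell (median -0.04), with counts of 6 and 6 under quantile normalization, 7 and 6 without the first 8 h library and 1 and 10 without the second, and 1 and 6 without either 24 h library. Over all genes 22.4% were called higher by 8 h, and afterwards 27.7% were called higher and 24% lower. Creb3l1, a membrane-bound transcription factor of secretory and matrix-producing cells, had by far the largest difference of the list, with 1.56 and 1.8 FPKM at 0 h, 6.85 and 7.29 at 8 h and 38.1 and 37.2 at 24 h (difference 2.26 ± 0.062, adjusted p = 2.1e-06 by limma). Herpud1, which takes part in the degradation of misfolded proteins, was at 94.9 and 94.2 FPKM at 0 h, 57.3 and 58.9 at 8 h and 33.1 and 35.8 at 24 h (difference -0.74 ± 0.046). Xbp1, a transcription factor of the unfolded protein response, was at 42.7 and 42.2 FPKM at 0 h, 74.9 and 61.2 at 8 h and 52.02 and 51.1 at 24 h.

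Of 18 tested genes of ribosome biogenesis, 15 had fallen by 8 h, against 32.1% of all genes, and afterwards 2 rose and 5 fell (median -0.04), against 24% of all genes called lower. Without the second 24 h library 1 fell, without the first 1 rose, and the median was 0.0044 under quantile normalization. No member differed by more than 0.30 in the second interval. Nucleolin (Ncl) was at 173 and 177 FPKM at 0 h, 145 and 145 at 8 h and 127 and 124 at 24 h (difference -0.21 ± 0.035). Lig1, the ligase of the lagging strand, belongs to the replication list and was at 26.5 and 29.5 FPKM at 8 h and 16.2 and 16.1 at 24 h.

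The AP-1 letters TGANTCA were searched on either strand in the 250 bases before the start. They were in 17 of 161 promoters of falls of at least 2-fold (10.6%, interval 6.70 to 16.3). For rises it was 16 of 153 (10.5%, interval 6.54 to 16.3), against 4.5% of promoters of tested genes. The share over all 27025 promoters was 6.87%, which lies within both intervals.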
